A study of Homo sapiens with 6 samples.

Results

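The MYC, MAX and MXD network is a set of transcription factors that bind DNA as pairs. It is described here through 10 genes, MYC, MYCN, MYCL1, MAX, MXD1, MXD3, MXD4, MXI1, MNT and MLX, among the 23228 genes of the deposited tables. They were chosen by name, as proteins of the basic helix-loop-helix leucine zipper kind that pair with MAX or with its relative MLX. The rule for choosing them uses no measured value, but it was set with earlier results of these data known. All 10 genes had enough reads to be tested, together with 14537 genes in all.

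MYC, MYCN and MYCL1 encode the activating arm of the network, and their proteins need MAX as a partner to bind the E-box, a short DNA motif in many promoters. The MXD proteins, MXI1 and MNT compete for the same partner and recruit the SIN3 and histone deacetylase corepressors to these sites. MLX pairs with some of the repressors and with the sugar-responsive factors MondoA and ChREBP, of which the latter is prominent in liver. MYC drives growth and ribosome production and is often raised in liver cancer.

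RNA was sequenced from Hep3B, an established human hepatocellular carcinoma cell line that carries integrated hepatitis B virus DNA. The 3 control libraries came from cells with a non-targeting shRNA, a hairpin RNA that directs the breakdown of a matching mRNA. The 3 other libraries are labelled PELP1-KD, from cells given shRNA against PELP1, a coregulator of nuclear receptors. Both shRNAs were delivered by lentivirus, and stable clones were selected with puromycin and pooled, so each group stands for 1 pooled line. The label titles give only the first of 2 PELP1 shRNAs, while the labelled protocol gives both. Labels disagree, too, about how RNA was extracted, whether reads were paired, and whether the libraries hold poly(A) RNA or RNA depleted of ribosomal RNA. No label says that the replicates were separate cultures, so the p values measure the spread between these libraries, which may be technical.

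Reads on genes numbered from 26758363 to 34456542 per library. Normalized reads, scaled to a common library size, came to 4893, 4914 and 5102 for PELP1 in control and to 4421, 4825 and 4840 in PELP1-KD. Its level was thus 94.5% of control, with a log2 fold change of -0.08 ± 0.04 (SE), which did not pass the test (adjusted p = 0.101, edgeR's quasi-likelihood test) and passed it with the replicate number as a block (adjusted p = 0.0106) and without PELP1-KD replicate 3 (adjusted p = 0.0180). Each direction below is therefore that of the libraries labelled PELP1-KD, whose PELP1 RNA was close to control. The PELP1 values of the groups did not overlap, which held for 58.8% of tested genes. The paper reports reduced PELP1 protein by Western blot in its PELP1-KD Hep3B cells, and protein was not measured in these libraries. The 10 markers of the hepatocyte lineage were all present, led by ALB and AFP. Their summed level was between 11020 and 11220 RPKM (reads per kilobase of exon, scaled to library size) in control and between 10040 and 10180 RPKM in PELP1-KD. All 10 were called at an adjusted p below 0.05, 7 lower and 3 higher, beside 26.8% of tested genes in each direction. That share is not matched to the high levels of these markers. Their median log2 fold change was -0.37, and the sum hides opposite moves of ALB (log2 fold change -0.61) and AFP (0.62).

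Of the 10 network genes, 4 were lower in PELP1-KD (MYC, MXD3, MXD4 and MNT), 3 were higher (MYCL1, MAX and MXI1) and 3 were not called (MYCN, MXD1 and MLX). A gene was called at an adjusted p below 0.05. By this rule 26.8% of all tested genes were lower, 26.8% were higher and 53.6% changed in either direction, so the share of called network genes has to be read against a high background. MXD4 alone among the 10 changed at least 2-fold, as did 7.65% of tested genes. The groups did not overlap for 7 of the 10, against 58.8% of tested genes. Those 7 are the same genes that were called. Against a fold change of 1.2 (edgeR's glmTreat), MYC, MXD4 and MYCL1 were called, against 21.1% of tested genes. The median log2 fold change was -0.01 over the 10 genes and 0.00 over all tested genes.

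**Figure D1:**
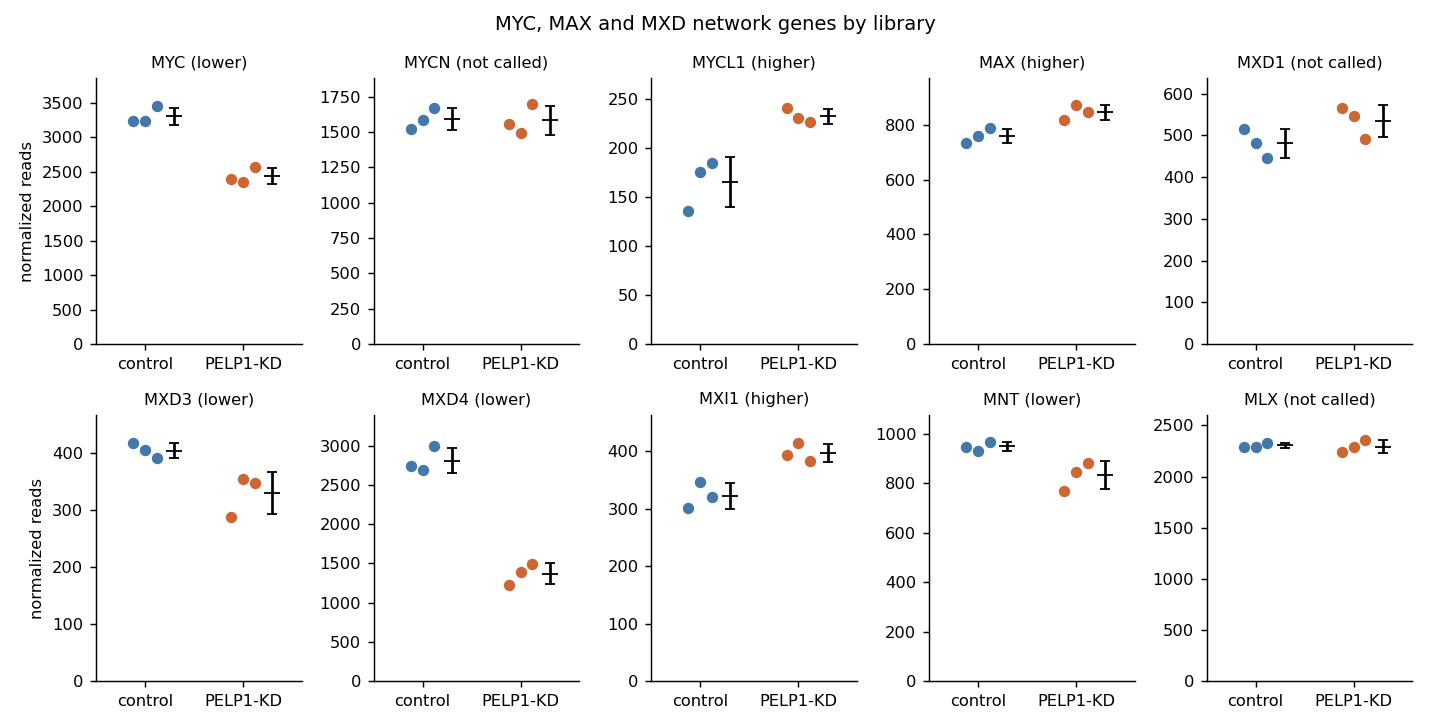
Normalized reads of the 10 network genes in each library (points; control in blue, PELP1-KD in orange), with the mean and SD of each group (n = 3) in black and each axis starting at 0. The call of edgeR stands beside each gene name. The MXD4 points of the 2 groups lie farthest apart, from 2699 to 2997 in control and from 1225 to 1496 in PELP1-KD.

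MYC, the founding member of the activating arm (chr8:128748315-128753680 in hg19, plus strand, 3 exons), had the highest level per length of the network in both groups. It had 3233, 3232 and 3444 normalized reads in control and 2394, 2348 and 2565 in PELP1-KD. Every PELP1-KD library was below every control library. MYC had a log2 fold change of -0.44 ± 0.04 (SE, 95% interval -0.53 to -0.35), a level of 73.7% of control (adjusted p = 8.18e-08, edgeR). At least as low a fold change was found in 11.7% of tested genes. In bulk RNA, fewer cells with a transcript and less of it per cell cannot be told apart.

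MYCN, a MYC paralog best known from neuroblastoma (chr2:16080683-16087129 in hg19, plus strand, 3 exons), was not called. It had 1521, 1586 and 1670 normalized reads in control and 1560, 1494 and 1697 in PELP1-KD, and the groups overlapped. Its log2 fold change was -0.01 with a 95% interval of -0.12 to 0.11 (adjusted p = 0.929). The whole interval lies above that of MYC.

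MYCL1 (chr1:40361096-40367687 in hg19, minus strand, 2 exons), the paralog first found in small cell lung cancer, was the least expressed of the 10 genes. It had 136, 175 and 184 normalized reads in control and 241, 230 and 226 in PELP1-KD. All PELP1-KD libraries were above all control libraries, and control replicate 1 was the lowest. MYCL1 had a log2 fold change of 0.49 ± 0.11 (SE, 95% interval 0.26 to 0.73), a level of 141% of control (adjusted p = 0.000973). At least as high a fold change was found in 9.46% of tested genes. The coefficient of variation (SD over mean) was 15.6% in control and 3.31% in PELP1-KD.

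MAX (chr14:65472892-65569227 in hg19, minus strand, 8 exon blocks) is the shared partner of both arms. It had 734, 757 and 787 normalized reads in control and 818, 873 and 847 in PELP1-KD. The groups did not overlap, with a gap smaller than the range within either group. Its log2 fold change was 0.15 ± 0.06 (SE, 95% interval 0.04 to 0.27), which passed the test (adjusted p = 0.0284). The call was lost without control replicate 1 (adjusted p = 0.123), without control replicate 2 (0.0798), without PELP1-KD replicate 2 (0.116) and in DESeq2 (0.0884).

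MXD4 (chr4:2249160-2263739 in hg19, minus strand, 6 exons), a repressor of the MXD family linked to differentiating cells, had the largest change of the network. It had 2746, 2699 and 2997 normalized reads in control and 1225, 1393 and 1496 in PELP1-KD. The highest PELP1-KD library was far below the lowest control library. MXD4 had a log2 fold change of -1.04 ± 0.06 (SE, 95% interval -1.16 to -0.91), a level of 48.7% of control (adjusted p = 2.21e-11). At least as low a fold change was found in 4.64% of tested genes. Without control replicate 3 it was -0.99 and without PELP1-KD replicate 1 it was -0.96, both under 2-fold and both called.

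The microRNA gene MIR4800 lies inside an MXD4 exon on the same strand, and the 80 bases it shares with that exon were counted for both genes. MIR4800 held 88, 94 and 109 reads in control and 57, 53 and 69 in PELP1-KD. These reads came to between 2.94% and 3.47% of the MXD4 reads in control and to between 4.44% and 4.76% in PELP1-KD. They cannot be told apart from MXD4 mRNA and are no measure of the mature microRNA.

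MXD3 (chr5:176732501-176739292 in hg19, minus strand, 7 exon blocks) is a family member tied to the S phase of the cell cycle. It had 418, 405 and 391 normalized reads in control and 289, 355 and 349 in PELP1-KD. The groups did not overlap, and PELP1-KD replicate 1 was the lowest library. Its log2 fold change was -0.29 ± 0.08 (SE, 95% interval -0.47 to -0.12, adjusted p = 0.00628). Its exons share 721 bases with PRELID1 on the opposite strand, which strand-specific counting keeps apart.

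MXD1 (chr2:70142173-70170076 in hg19, plus strand, 6 exons), a repressor that rises as many cells differentiate, had 515, 482 and 446 normalized reads in control and 565, 546 and 491 in PELP1-KD. The groups overlapped, and replicate 3 was the lowest of both. The log2 fold change was 0.15 ± 0.08 (SE, 95% interval -0.01 to 0.31, adjusted p = 0.105). With the replicate number as a block it was 0.15 and passed the test (adjusted p = 0.0405), and without PELP1-KD replicate 3 it was 0.21 (adjusted p = 0.0214).

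MXI1 (chr10:111967363-112047123 in hg19, plus strand, 8 exon blocks), also known as MXD2 and as a candidate tumour suppressor, changed in the direction opposite to MXD4. It had 302, 347 and 321 normalized reads in control and 393, 415 and 384 in PELP1-KD. All PELP1-KD libraries were above all control libraries. The log2 fold change was 0.30 ± 0.08 (SE, 95% interval 0.13 to 0.46), a level of 123% of control (adjusted p = 0.00357).

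MNT (chr17:2287354-2304258 in hg19, minus strand, 6 exons) is the broadly expressed repressor of the network. It had 950, 933 and 969 normalized reads in control and 771, 846 and 884 in PELP1-KD, without overlap. The log2 fold change was -0.19 ± 0.06 (SE, 95% interval -0.31 to -0.07, adjusted p = 0.0107). Without PELP1-KD replicate 1, the lowest library, it was -0.13 and the call was lost (adjusted p = 0.0668).

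MLX (chr17:40719078-40725221 in hg19, plus strand, 8 exons), which pairs with MondoA and ChREBP, had 2291, 2291 and 2331 normalized reads in control and 2236, 2285 and 2358 in PELP1-KD. The PELP1-KD range enclosed that of control. The log2 fold change was -0.01, with a 95% interval of -0.09 to 0.08 (adjusted p = 0.900). For a single gene taken alone, 3 libraries against 3 cannot give a two-sided exact permutation p below 0.1, and each of the 7 called genes had that value.

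**Figure D2:**
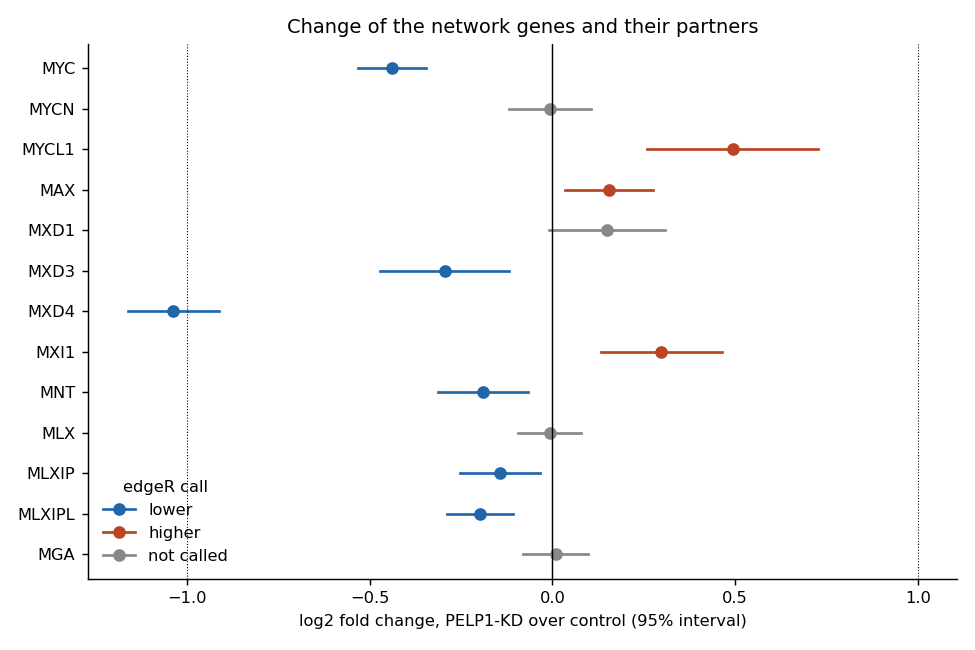
Log2 fold change of PELP1-KD over control (points) with its 95% interval (lines) for the 10 network genes and 3 further partners, coloured by the call of edgeR, with dotted lines at a 2-fold change. MXD4 lies at -1.04, MYC at -0.44 and MYCL1 at 0.49, while the other genes lie between -0.29 and 0.30.

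Levels can be compared between genes only per length, and RPKM was used for this. The length counts all annotated exons of a gene, so a gene whose transcripts use only some of them is understated. The order and the ratios between genes carry this limit. In control the order was MYC (44.4 ± 1.64, SD, n = 3), MLX (28.6), MXD4 (23.7), MYCN (19.5), MAX (8.39), MNT (6.25), MXD3 (4.08), MXD1 (2.73), MXI1 (2.68) and MYCL1 (1.06 ± 0.166). Only the ranges of MXD1 and MXI1 overlapped between neighbours in this order. In PELP1-KD, MYC remained first at 32.8 ± 1.54 RPKM and MLX next at 28.5. MXD4 fell from the third to the fourth place, below MYCN at 19.3 RPKM, with 11.6 ± 1.15 RPKM. MXD3 (3.33), MXI1 (3.30) and MXD1 (3.03) then overlapped their neighbours, and MYCL1 stayed last at 1.49. Among all tested genes, MYC lay above 86.8% in control and 82.3% in PELP1-KD, and MXD4 above 76.2% and 59.4%.

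Ratios within a library do not depend on how libraries are scaled against each other. MYC over MAX, in RPKM, was 5.36, 5.20 and 5.33 in control and 3.56, 3.27 and 3.69 in PELP1-KD, without overlap. MYC over MXD4 went the other way, with 1.88, 1.91 and 1.83 in control and 3.12, 2.69 and 2.73 in PELP1-KD. The repressor transcript was thus lower relative to MYC in PELP1-KD although MYC itself was lower. MYC made up 68.4% of the summed level of MYC, MYCN and MYCL1 in control and 61.1% in PELP1-KD.

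The sum of MYC, MYCN and MYCL1 was 64.9 ± 2.62 RPKM in control and 53.6 ± 2.78 RPKM in PELP1-KD (SD, n = 3), or 82.5% of control. The sum of MXD1, MXD3, MXD4, MXI1 and MNT was 39.5 ± 1.16 RPKM in control and 26.7 ± 1.69 RPKM in PELP1-KD, or 67.7% of control. Neither sum overlapped between the groups. MXD4 made up 60.1% of the repressor sum in control and 43.3% in PELP1-KD. Without MXD4 the repressor sum was 15.7 ± 0.204 RPKM and 15.1 ± 0.632 RPKM, and the groups overlapped. The ratio of the first sum to that of all 5 repressors was 1.61, 1.66 and 1.67 in control and 2.13, 1.87 and 2.03 in PELP1-KD, again without overlap. This higher ratio rests on MXD4 and is not shared by the other repressors. Without MXD4 the repressor sum was 96.2% of control, so it fell less than the first sum, at 82.5%. The sum of these 8 MAX partners, without MGA, was 12.4 times the level of MAX in control and 8.59 times in PELP1-KD. These sums describe RNA, and they were formed after the values of these data were known, so no test is given.

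**Figure D3:**
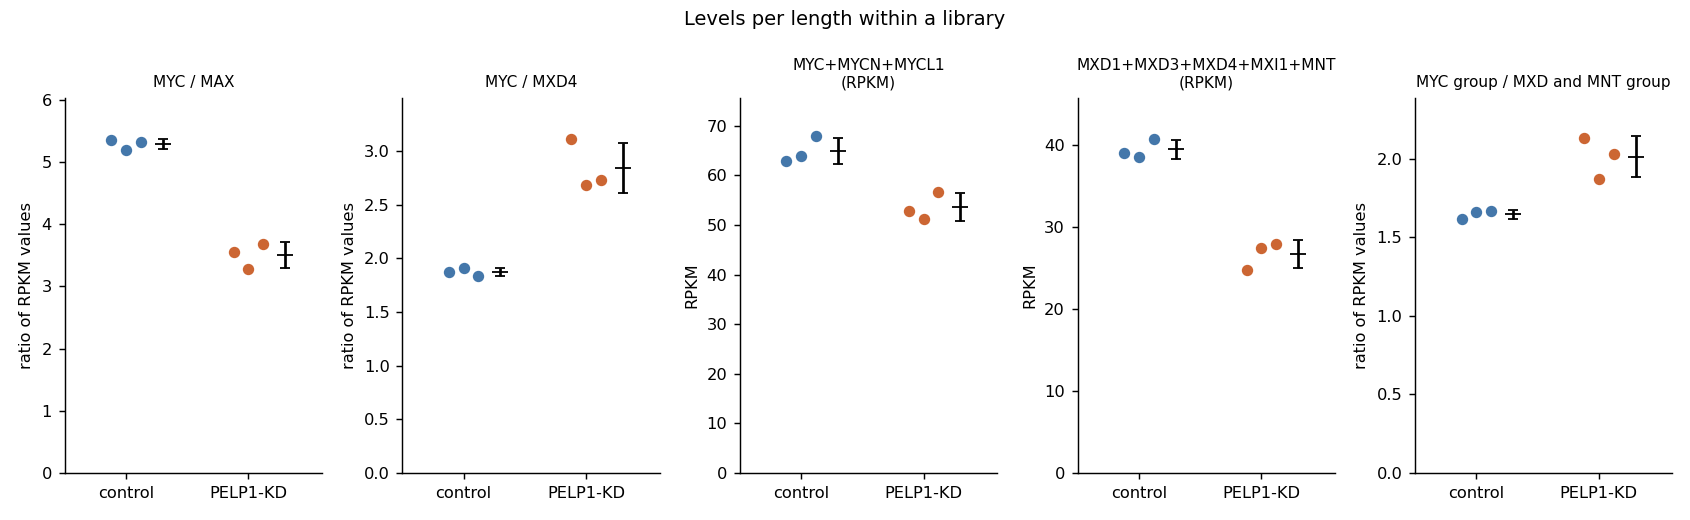
Ratios and sums of RPKM values in each library (points; control in blue, PELP1-KD in orange) with the mean and SD of each group (n = 3), each axis starting at 0. MYC over MAX and both sums were lower in PELP1-KD, while MYC over MXD4 and the ratio of the sums were higher, and no panel has overlapping groups. The higher ratio of the sums rests on MXD4.

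The bases around the E-box in the promoters of network genes are shown because this is the motif through which the network acts, and because some of its own genes hold it. Promoters from RefSeq (GRCh38.p14, from 250 bases before to 50 bases after the start of each gene) were matched for 9 of the 10 genes, MYCL1 under the symbol MYCL. The letters CACGTG, which read the same on both strands, were searched in each window. MXD4, MNT and MLX each held 1 match, at 238, 193 and 50 bases before the start, and MYCN, MYCL1, MAX, MXD1, MXD3 and MXI1 held none. The match lies in the sequences below at the capitals, written 5′ to 3′ on the strand of the gene, at chr4:2262312-2262359 (minus strand) for MXD4, chr17:2401218-2401283 (minus strand) for MNT and chr17:42567020-42567085 (plus strand) for MLX.
MXD4: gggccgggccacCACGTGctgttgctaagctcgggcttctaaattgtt
MNT: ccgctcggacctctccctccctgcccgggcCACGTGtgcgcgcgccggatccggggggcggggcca
MLX: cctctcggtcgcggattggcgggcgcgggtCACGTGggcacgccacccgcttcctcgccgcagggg

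Of the 3 genes shown, MXD4 and MNT were lower in PELP1-KD and MLX was not called. The motif was in 7.26% of all 35116 promoter windows and in at least 1 window of 12.5% of the 9865 tested genes that could be matched by symbol. The 1234 tested genes with the motif had a median log2 fold change of -0.01, with 30.3% lower and 26.4% higher. The 8631 without it had a median of 0.00, with 27.8% lower and 27.3% higher. A match of letters is not a measured binding site, and no binding was measured in these libraries.

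MLXIP (MondoA) and MLXIPL (ChREBP), the sugar-responsive partners of MLX, were both lower, while MLX was not called. MLXIPL had 2460, 2352 and 2520 normalized reads in control and 2075, 2142 and 2178 in PELP1-KD, a log2 fold change of -0.20 ± 0.04 (SE, adjusted p = 0.000712). MLXIP had 1422, 1402 and 1496 against 1244, 1273 and 1392, a log2 fold change of -0.14 ± 0.05 (adjusted p = 0.0282). The MLXIP call was lost without control replicate 1 (adjusted p = 0.0546), control replicate 3 (0.120), PELP1-KD replicate 1 (0.112) or PELP1-KD replicate 2 (0.107). MGA, a large MAX partner that joins a Polycomb complex, had between 1810 and 1814 normalized reads in control and between 1814 and 1833 in PELP1-KD (log2 fold change 0.01, adjusted p = 0.880).

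Of 14 targets of MLX with MondoA or ChREBP, 12 were tested, with 5 lower and 4 higher beside 26.8% of tested genes in each direction, and a median log2 fold change of 0.04. PKLR, the liver pyruvate kinase and a classical ChREBP target, had 234, 215 and 265 normalized reads in control and 57.3, 71.2 and 73.9 in PELP1-KD, a log2 fold change of -1.82 ± 0.13 (adjusted p = 4.90e-10). ARRDC4, an arrestin-like inhibitor of glucose uptake, had 29, 23 and 24 reads in control and 4, 3 and 6 in PELP1-KD, so its log2 fold change of -2.35 ± 0.38 rests on few reads (adjusted p = 3.31e-05). TXNIP, the best known MondoA target, did not pass the test, with a log2 fold change of 0.13 (adjusted p = 0.107). It is named after its value was seen. ACACB (0.31, adjusted p = 0.000292) and PNPLA3 (0.22, adjusted p = 0.000603), both of lipid metabolism, were higher.

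Of the 12 corepressors that MXD and MNT proteins recruit, 1 was lower and 1 was higher, beside 26.8% of tested genes in each direction, with a median log2 fold change of -0.02. SAP30, a subunit of the SIN3 complex, rose from 763 ± 32.7 to 942 ± 42.2 normalized reads (SD, n = 3), a log2 fold change of 0.30 ± 0.06 (adjusted p = 0.000190). The number of lower genes was 0 without PELP1-KD replicate 2. With the replicate number as a block, 4 corepressors were lower, and without replicate 3 of both groups 3 were lower and 2 higher. The 26.8% belongs to the main fit, and the share of all tested genes called in these other fits is not given. Over all lists together, 48 genes were lower in the main fit, 57 with the block and 52 without replicate 3 of both groups. The higher genes numbered 24, 26 and 24.

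Of 15 cofactors that MYC binds, 5 were lower and 3 higher, near the 26.8% of tested genes in each direction, with a median log2 fold change of -0.01. The called genes of the TIP60 acetyltransferase complex did not share a direction. KAT5, its catalytic subunit, fell from 1199 ± 29.0 to 908 ± 34.8 normalized reads (log2 fold change -0.40 ± 0.05, adjusted p = 2.29e-06). ACTL6A, an actin-related subunit of that and other chromatin complexes, also fell (log2 fold change -0.29 ± 0.04, adjusted p = 5.47e-06). EP400, its ATPase, rose from 2323 ± 3.97 to 2683 ± 98.0 normalized reads (log2 fold change 0.21 ± 0.04, adjusted p = 0.000311). ZBTB17 (MIZ1), through which MYC represses genes, had a log2 fold change of 0.20 ± 0.06 (adjusted p = 0.0108), which was lost without control replicate 2 (0.0841). Without that library 1 cofactor remained higher.

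Of 15 genes that act on the stability or activity of the MYC protein, 3 were lower and 5 higher, near the 26.8% of tested genes in each direction, with a median log2 fold change of 0.01. The list holds genes that stabilise MYC and genes that destabilise it. PPP2R5A, a regulatory subunit of the phosphatase PP2A that promotes MYC breakdown, fell from 2036 ± 33.4 to 1376 ± 25.7 normalized reads (log2 fold change -0.56 ± 0.04, adjusted p = 1.93e-09). STUB1, a ubiquitin ligase, fell too (log2 fold change -0.28 ± 0.05, adjusted p = 0.000140). BIN1, a protein that binds MYC and limits its activity, had 5386, 5469 and 5778 normalized reads in control and 10560, 10940 and 11620 in PELP1-KD (log2 fold change 0.99 ± 0.04, adjusted p = 6.39e-14). PIM1, a kinase that stabilises MYC, rose as well (log2 fold change 0.52 ± 0.06, adjusted p = 4.71e-07). Without control replicate 1, control replicate 2 or PELP1-KD replicate 2, 3 genes of the list were higher. The MYC protein was not measured in these libraries.

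Of 15 factors that act on MYC transcription or on its mRNA, 8 were lower and 2 higher, beside 26.8% of tested genes in each direction, with a median log2 fold change of -0.11. The lower genes named here bind RNA, and the 2 higher genes belong to the WNT pathway. HNRNPC, which binds the MYC mRNA, fell from 20780 ± 28.9 to 16460 ± 47.7 normalized reads (log2 fold change -0.34 ± 0.03, adjusted p = 6.79e-09). IGF2BP2, an mRNA-stabilising protein, fell from 3543 ± 55.1 to 2629 ± 59.2 (log2 fold change -0.43 ± 0.04, adjusted p = 1.83e-08). LEF1, a DNA-binding partner of β-catenin, had 285, 259 and 278 normalized reads in control and 569, 561 and 610 in PELP1-KD (log2 fold change 1.08 ± 0.07, adjusted p = 2.62e-10). CTNNB1, which encodes β-catenin, rose by 0.24 ± 0.03 on the log2 scale (adjusted p = 4.97e-07). MYC, a known target of this pathway, was lower.

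Of 32 genes that MYC is known to activate, 18 were lower and 4 higher, beside 26.8% of tested genes in each direction, with a median log2 fold change of -0.13. Most of them serve ribosome production, nucleotide synthesis or translation. GNL3, nucleostemin of the nucleolus, fell from 2438 ± 62.3 to 1842 ± 58.3 normalized reads (log2 fold change -0.40 ± 0.04, adjusted p = 1.69e-07). CCND2, cyclin D2, had 32, 28 and 45 reads in control and 3, 1 and 4 in PELP1-KD, a log2 fold change of -3.49 ± 0.43 that rests on few reads (adjusted p = 1.08e-06). No other of the 18 lower genes fell at least 2-fold. The 26.8% is over tested genes of all levels and is not matched to the levels of this list. Of the 4 higher genes, NOP2, a methyltransferase of ribosomal RNA, had a log2 fold change of 0.18 ± 0.04 (adjusted p = 0.000815) and PHB, prohibitin, of 0.15 ± 0.03 (adjusted p = 0.00135). Of the 27 genes of the list with a promoter window, 16 held the E-box letters. The list was compiled from known MYC targets, so this share is not independent of how it was chosen.

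Of 15 genes that MYC is known to repress, 14 were tested, with 6 lower and 5 higher beside 26.8% of tested genes in each direction, and a median log2 fold change of 0.01. Inhibitors of cyclin-dependent kinases were among both the lower and the higher genes. CDKN2B (p15) had 1623, 1562 and 1599 normalized reads in control and 4277, 4349 and 4320 in PELP1-KD (log2 fold change 1.44 ± 0.04, adjusted p = 2.29e-16). CDKN1C (p57), an imprinted gene, had 912, 867 and 914 in control and 116, 114 and 133 in PELP1-KD (log2 fold change -2.89 ± 0.08, adjusted p = 2.57e-16). NDRG1, a stress-responsive gene, rose by 0.50 ± 0.04 on the log2 scale (adjusted p = 1.10e-09). PDGFRB, a growth factor receptor of mesenchymal cells, had 131, 146 and 156 normalized reads in control and 30.7, 31.5 and 36.0 in PELP1-KD (log2 fold change -2.13 ± 0.16, adjusted p = 9.91e-10).

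**Figure D4:**
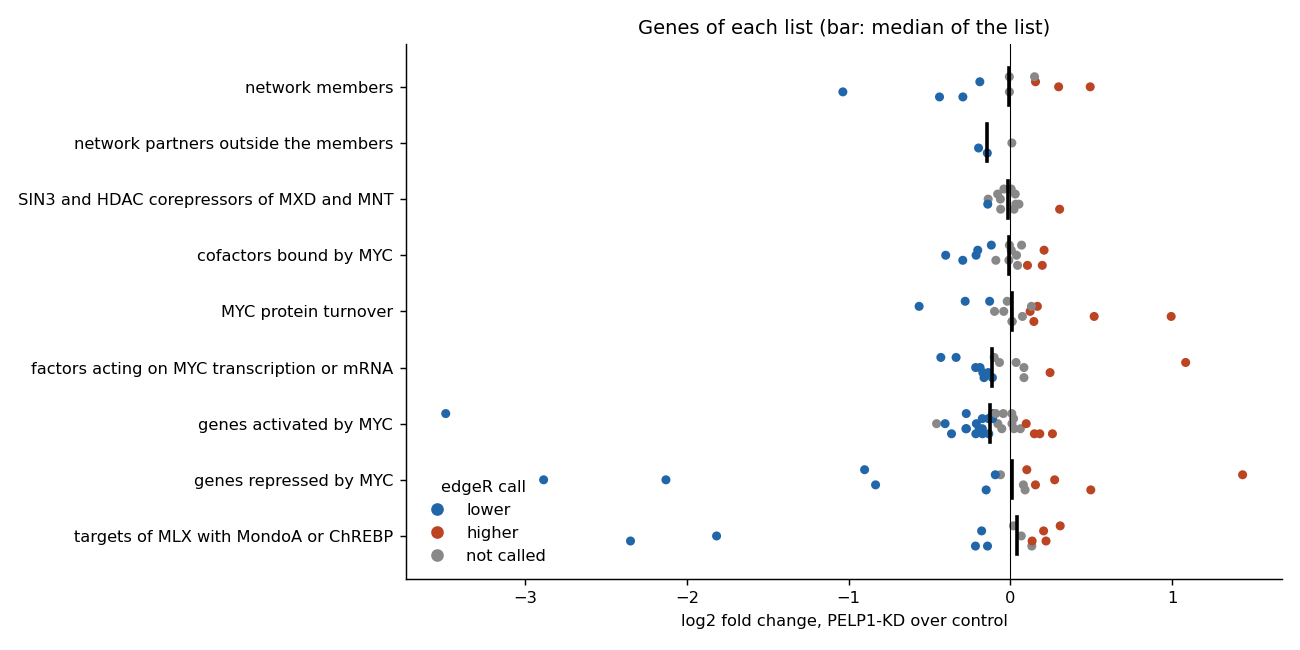
Log2 fold change of PELP1-KD over control for each tested gene (points, coloured by the call of edgeR) of the network and of 8 lists of related genes, with the median of each list as a black bar. The medians lie between -0.14 and 0.04, and the genes activated by MYC have 18 lower and 4 higher genes.

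Markers of other cell types were followed as a check on the libraries. Of 7 fibroblast markers, which include PDGFRB, THY1 was at 0 in all libraries, and the summed level was between 10.7 and 11.8 RPKM in control and between 16.5 and 16.9 RPKM in PELP1-KD. Of the 5 that were tested, LUM (log2 fold change 0.92) and COL1A2 (0.51), which lead the sum, were higher, and PDGFRA (-0.96) and PDGFRB (-2.13) were lower. Of 7 leukocyte markers PTPRC, the leukocyte common antigen, had between 0 and 5 reads, and the sum was between 113 and 120 RPKM in control and between 64.9 and 65.8 RPKM in PELP1-KD. LYZ (log2 fold change -1.55) and CD14 (-0.98) were lower and CD68 (0.48) was higher. Of 5 endothelial markers CDH5, KDR and TEK were at 0 and the sum was at most 0.510 RPKM. Of 5 markers of other epithelia KRT5, SFTPC and NKX2-1 were at 0, and the sum was between 69.5 and 74.9 RPKM in control and between 80.6 and 91.3 RPKM in PELP1-KD, nearly all of it CDX2. The part of these genes in the changes of the network was not tested.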

How the data were processed

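The authors deposited 1 table of estimated counts per library, 6 in all, with no normalization. Per the file headers, reads were counted on hg19 exons per gene by featureCounts 1.5.0-p1, by strand, with a minimum mapping quality and with reads that match several places shared out as fractions. The submitters' processing notes list HISAT2 as the aligner, and the paper's methods name TopHat2 and HTSeq. In each library 10.6% to 13.3% of values were fractional. Reads that overlap several genes appeared to be counted in full for each, since MXD4 and MIR4800 had whole counts in every library. SNRPN and SNURF had equal counts, which sharing reads in equal parts would give as well.

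The estimated counts were rounded and tested with edgeR 4.0.16 (R 4.3.3) on the 3 control and 3 PELP1-KD libraries: filterByExpr, TMM, glmQLFit with robust estimation and glmQLFTest, with p adjusted by Benjamini-Hochberg across all 14537 genes tested. Normalized reads are reads over the relative TMM-scaled library size. RPKM was computed from the exon lengths in the tables. Intervals are 95%. The common biological coefficient of variation, the spread between libraries of a group beyond sampling noise, was 4.04%. Replicates of a group differed by more than sampling noise (chi-square over its degrees of freedom from 1.94 to 7.02), and each counted as 1 sample. The fits were tested on simulated counts.

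The titles number the replicates 1 to 3 in both groups. Deviations from the group mean correlated between same-numbered libraries with 0.336, 0.247 and 0.666 over 6370 genes, which are not independent replicates. The main fit did not pair the libraries, and the replicate number entered only as a block in an alternative fit. Control replicate 2 with PELP1-KD replicate 1 had 0.418, so replicate 3 stands apart in both groups, and replicates 1 and 2 are not separated by number.

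The network genes and the gene lists were chosen with earlier results of these data known. Named are the 10 genes, PELP1, MLXIP, MLXIPL, MGA, and per list the 2 called genes with the smallest p in each direction, the nearest tested gene on either side of each network gene, and the 3 genes with the profile nearest to that of the member with the smallest p in each direction. TKFC of the MLX targets was not analysed here, and GAS1 and G6PC had too few reads to be tested. Some genes of the lists and marker sets are counted but not reported by name here. As alternatives, edgeR was run with upper-quartile scaling or the size factors of DESeq2, without a filter, with a minimum of 10 reads per library or of 1 RPKM on average, and DESeq2 1.42.0 was run in its place. Further settings were truncation in place of rounding, an adjusted p below 0.01, glmTreat against 1.2-fold, the replicate number as a block, plain library sizes for RPKM, and each library left out in turn. Leaving out replicate 3 of both groups was added after the data had been seen.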

Additional observations from a re-analysis of the deposited data

How the results depend on the processing

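Over 15 alternative fits, MYC (log2 fold change between -0.48 and -0.40), MXD4 (-1.11 to -0.96), MYCL1 (0.37 to 0.60), MXD3 (-0.36 to -0.20) and MXI1 (0.25 to 0.35) were called in each, with the same sign. MNT was called in 14, MAX in 11 and MXD1 in 2. MYCN and MLX were called in none, and their signs turned with a library left out. MYCN was 0.0328 without control replicate 3, 0.0056 without PELP1-KD replicate 1 and 0.033 without PELP1-KD replicate 2 (range over libraries left out -0.0588 to 0.033). MLX was 0.0052 without control replicate 3 and 0.0115 without PELP1-KD replicate 1 (range -0.0276 to 0.0115). With each library left out in turn, between 3 and 4 network genes were lower, between 2 and 4 higher, and 0 or 1 called at least 2-fold, where 0 came without control replicate 3 or PELP1-KD replicate 1. Against a fold change of 1.2 (glmTreat), 2 network genes were lower and 1 higher, since that test asks for more than a difference. At an adjusted p below 0.01 in the main edgeR fit, 3 network genes were lower and 2 higher. MNT (adjusted p = 0.0107) and MAX (adjusted p = 0.0284) were then not called. The share of all tested genes called at this stricter threshold is not given. PELP1 had -0.0831 (adjusted p = 0.0106) with the replicate number as a block, -0.0871 (adjusted p = 0.0244) without replicate 3 of both groups, chosen after seeing the data, and -0.1047 to -0.04 when single libraries were dropped, where it passed the test without PELP1-KD replicate 3 (-0.1047, adjusted p = 0.0180). The cause of these changes was not tested. The block changed no call of a network gene other than that of MXD1. Over the gene lists together, 48 genes were lower and 24 higher in the main fit, beside 26.8% of all tested genes in each direction. As single libraries were left out, between 39 and 48 were lower and between 18 and 23 higher. The share of all tested genes called in those fits is not given. With 3 libraries a group, a change near the standard error of its gene was not detectable, and no value shows protein.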

Other observations

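By Euclidean distance of centred log2 normalized reads over the 6 libraries, among 12048 genes with at least 1 RPKM, the profiles nearest to that of MXD4 were those of MOCS1 (distance 0.104, log2 fold change -1.06), MFAP2 (0.109, -0.97) and EFCAB4A (0.113, -1.03). Nearest to MYCL1 were KLF4, a transcription factor of epithelial differentiation (distance 0.135, log2 fold change 0.55), PLA2G7 (0.144, 0.47) and GUCY1A2 (0.146, 0.52). Genes of one size of change and little spread lie near each other by this measure.

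The nearest tested gene on either side of each network gene was also looked at. Beside MYC, FAM84B had a log2 fold change of -0.11 (adjusted p = 0.815) and the noncoding PVT1 of -0.27 (adjusted p = 0.233). Beside MXD4, on the side without MIR4800, ZFYVE28 had 0.25 (adjusted p = 0.259). Beside MYCL1, TRIT1 had 0.04 (adjusted p = 0.614) and MFSD2A -0.87 (adjusted p = 0.0117). Beside MAX, FNTB had -0.23 (adjusted p = 0.00995) and LOC645431 had 1.15 (adjusted p = 0.000102), and beside MXD3, PRELID1 had 0.14 (adjusted p = 0.00754). In the direction of its neighbour, ADD3 beside MXI1 had 0.28 (adjusted p = 2.31e-05) and SGSM2 beside MNT had -0.14 (adjusted p = 0.0221), while LOC284009 on its other side had 1.28 (adjusted p = 0.0169). No neighbour beyond these and MIR4800 was called.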
